A study of Mus musculus with 61 samples.

Results

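Regulators of G protein signalling (RGS proteins) were followed as 7 genes, Rgs2, Rgs4, Rgs7, Rgs8, Rgs9, Rgs10 and Rgs16, in fractions that together cover the whole mouse brain. A probe of the array was taken as a member when its RefSeq identifier belonged to one of these genes, which gave 10 probes of 41174, and of these the probe with the highest mean signal was used for each gene. The other 3 probes (1 each of Rgs2, Rgs4 and Rgs8) were kept as checks. The brains came from 6 male C57BL/6J mice aged 8 weeks, with no treatment or altered gene, and each brain was cut in 1 plane into fractions of 200 sections of 5 micron, about 1 mm each. The S series (sagittal, left to right) had 9 fractions, C (coronal, rear to front) 13 and H (horizontal, top to bottom) 6, and in 3 further mice, cut at a slight angle to the same planes, the So series had 10, Co 16 and Ho 7. Every one of the 61 fractions was measured on its own array. A fraction is a slab of tissue that holds several brain areas, and in such bulk samples fewer cells of a type and less RNA per cell cannot be told apart.

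Heterotrimeric G proteins carry the signal of receptors for dopamine, glutamate, acetylcholine, opioids and many other transmitters. An RGS protein speeds the hydrolysis of GTP on the G alpha subunit and so shortens the signal. Rgs2, Rgs4, Rgs8 and Rgs16 are small proteins of the R4 family, Rgs7 and Rgs9 belong to the R7 family, which works in complex with the beta subunit Gnb5 and a membrane anchor, and Rgs10 is a member of the R12 family. In the brain, Rgs9 is known from striatal neurons, Rgs8 from Purkinje cells of the cerebellum and Rgs10 from microglia as well as neurons.

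Promoter sequences are shown for 4 members whose levels peaked in different or in shared parts of the brain: Rgs9 and Rgs2, both highest in the same coronal fractions, and Rgs16 and Rgs8, which lie close to each other on chromosome 1, with only the non-coding gene C230024C17Rik between them in the RefSeq table, and peaked in different fractions. Each is the 300 bases from RefSeq (build GRCm38.p6) around the start of the gene, 250 bases before it and 50 after, written 5′ to 3′ on the strand of the gene. The array files name no genome build. For Rgs8 the table lists 3 start sites and the first along the chromosome is shown. Capitals mark the short form of the cyclic AMP response element (TGACG or CGTCA), the TATA box (TATAAA or TTTATA) and the CCAAT box (CCAAT or ATTGG), which do not overlap here.
Rgs9, chr11:109298132-109298431, minus strand: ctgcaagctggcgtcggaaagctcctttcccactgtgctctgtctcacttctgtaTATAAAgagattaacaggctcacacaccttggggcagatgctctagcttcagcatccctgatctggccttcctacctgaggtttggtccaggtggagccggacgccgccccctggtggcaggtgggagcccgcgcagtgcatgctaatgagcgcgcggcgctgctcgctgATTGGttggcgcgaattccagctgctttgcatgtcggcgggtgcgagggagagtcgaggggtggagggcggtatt
Rgs2, chr1:144004100-144004399, minus strand: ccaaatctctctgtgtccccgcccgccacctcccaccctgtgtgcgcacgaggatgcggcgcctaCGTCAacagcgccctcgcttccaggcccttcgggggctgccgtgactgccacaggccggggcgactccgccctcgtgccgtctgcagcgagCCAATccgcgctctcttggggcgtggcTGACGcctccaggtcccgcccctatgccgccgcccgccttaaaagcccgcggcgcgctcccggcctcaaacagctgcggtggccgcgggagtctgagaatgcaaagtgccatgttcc
Rgs16, chr1:153740103-153740402, plus strand: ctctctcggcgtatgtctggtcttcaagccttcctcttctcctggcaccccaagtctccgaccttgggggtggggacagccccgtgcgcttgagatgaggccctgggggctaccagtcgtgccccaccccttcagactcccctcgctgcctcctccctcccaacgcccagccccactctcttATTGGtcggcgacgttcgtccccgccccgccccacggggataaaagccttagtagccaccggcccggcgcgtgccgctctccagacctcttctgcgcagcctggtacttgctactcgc
Rgs8, chr1:153652787-153653086, plus strand: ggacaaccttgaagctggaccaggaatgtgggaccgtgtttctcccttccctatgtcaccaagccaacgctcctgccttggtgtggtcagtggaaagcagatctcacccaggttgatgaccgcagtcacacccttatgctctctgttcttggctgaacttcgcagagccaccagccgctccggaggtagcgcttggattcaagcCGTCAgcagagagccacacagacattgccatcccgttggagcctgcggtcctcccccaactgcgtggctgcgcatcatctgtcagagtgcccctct
Among all 32851 promoters of the table, 20.8% held TGACG, 13.6% TATAAA and 37.4% CCAAT on either strand. Rgs2 and Rgs4 had 2 short cyclic AMP response elements each, Rgs8 had 1 at this start, and the other members had 0. TATAAA was found in Rgs4 and Rgs9. CCAAT stood in Rgs2, Rgs4, Rgs9, Rgs16 and at the other 2 starts of Rgs8, while Rgs7 and Rgs10 held none of these letters. These matches describe the sequence only.

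Levels are given on a log2 scale as the log2 of the signal minus the 75th percentile of all probes of the same array, so that 1 unit is a 2-fold change and a value of 0 is the level of that percentile. A level of one probe cannot be set against that of another. The 75th percentile of the signal lay between 737.5 and 1919 units, between 57.9% and 73.0% of the probes of an array were well above background, and none was saturated. Every member's probe was well above background in all 61 fractions, except that the spot of Rgs7 in Co6 was marked as an outlier and left out. To have replicates, 56 fractions were taken as the 28 pairs given by the study (13 coronal, 9 sagittal, 6 horizontal), each a fraction of one mouse and its counterpart in the oblique series of another. The study had chosen the partners by their correlation on these arrays, so the spread within pairs may be smaller than between unselected brains. So1, Co1, Co13, Co16 and Ho1 had no partner.

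All 7 members varied over the 28 pairs beyond the spread within pairs (limma's moderated F test, 27 numerator and 28 residual degrees of freedom to which 1.88 prior ones were added, Benjamini-Hochberg adjustment over all probes tested), which 61.2% of all probes did. The F value was largest for Rgs4 (F = 30.9, adjusted p = 2.3e-13) and Rgs9 (F = 20.1, adjusted p = 3.36e-11). It was between 10.6 and 12.6 for Rgs2, Rgs7, Rgs8 and Rgs16, and smallest for Rgs10 (F = 5.48, adjusted p = 3.63e-05), against a median of 2.58 over all probes. Within pairs the SD was 0.10 for Rgs7, 0.13 for Rgs10, 0.15 for Rgs2, 0.23 for Rgs4, 0.36 for Rgs16, 0.44 for Rgs8 and 0.50 for Rgs9 (log2), and over the pair means it was 0.29, 0.23, 0.37, 0.90, 0.86, 1.01 and 1.55 in the same order. With the 9 sagittal pairs alone only 2 of the 7, Rgs7 and Rgs8, passed, and 5 did not, with adjusted p between 0.0863 and 0.974. Few probes passed there at all, 2392 against 22341 over the 28 pairs.

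**Figure D1:**
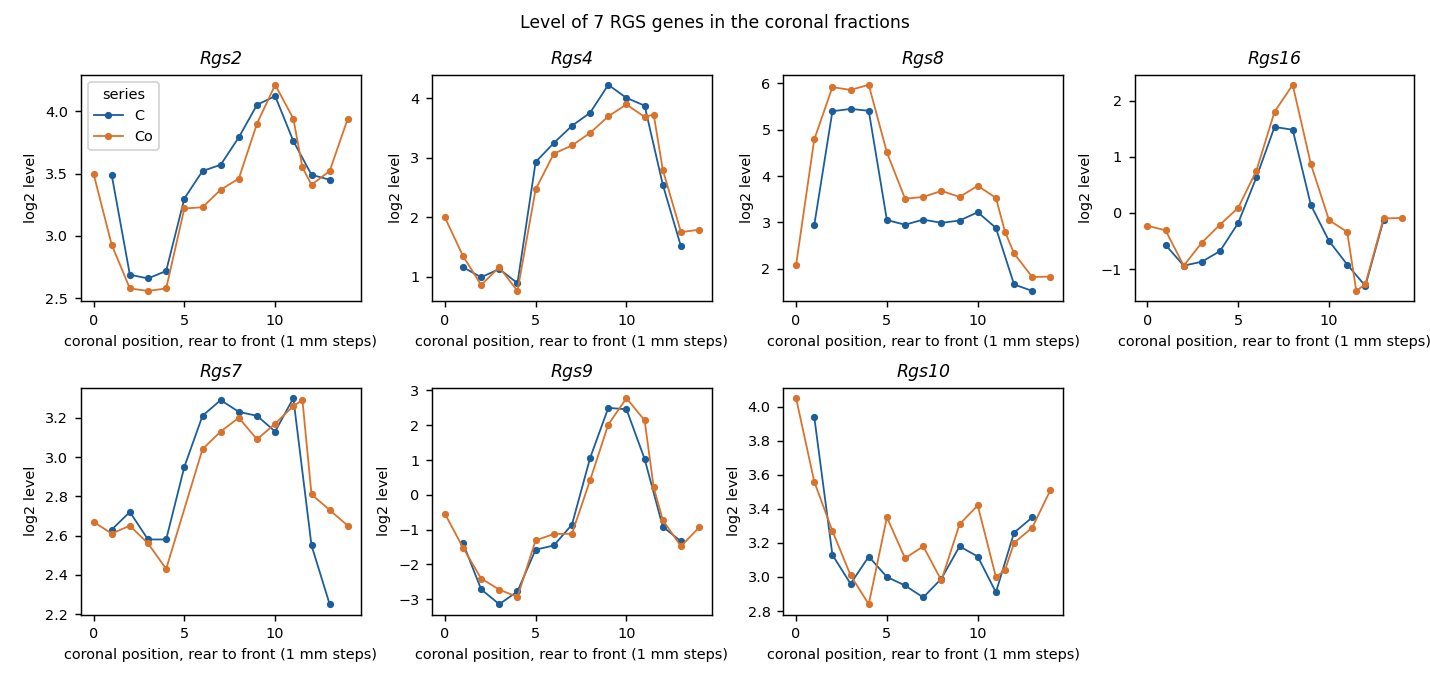
Level (log2, relative to the 75th percentile of each array) of the 7 genes in the coronal fractions from rear to front. Blue points are the C series and orange points the Co series, placed at the position of their pair, with the unpaired Co1, Co13 and Co16 beside their neighbours and no point for Rgs7 in Co6. Rgs9 is highest in C9 and Co11, Rgs16 in C7 and Co9 and Rgs8 in C3 and Co5, in each case at neighbouring positions of the 2 mice.

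Rgs9, which in the striatum acts on dopamine and opioid receptor signals, had the widest range of the 7 genes. It ran from -3.15 in C3 to 2.50 in C9 in the C series, and from -2.94 in Co5 to 2.78 in Co11 in the Co series, a span of 50.1-fold and 52.6-fold. C9 and C10 (2.46) stood above all other C fractions, and Co11, Co12 (2.14) and Co10 (2.02) above all other Co fractions. In the order of the 13 coronal pairs, the step from C9/Co10 to C11/Co12 exceeded the SD within pairs and the step between the leading pairs, C10/Co11 and C9/Co10, did not. From the top of the brain to its base, Rgs9 was lowest in H1 (-2.02) and Ho2 (-1.66) and highest in H6 (2.11) and Ho6 (1.29). Across the brain from left to right it had 2 maxima, in S3 (1.22) and S8 (1.48) and in So3 (1.34) and So8 (1.60), with a low between them of 0.21 in S6 and -0.22 in So6.

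Rgs2, which acts mainly on Gq and whose transcription is known to respond to neuronal activity, was highest in the same coronal fractions as Rgs9. Its level was 4.12 in C10 and 4.05 in C9 against a median of 3.49 in the C series, and 4.21 in Co11 against a median of 3.44 in Co. It was lowest in C2 to C4, with values of 2.69, 2.66 and 2.72, and in Co3 to Co5, with 2.58, 2.56 and 2.58. The next lowest value of both series was 2.93 in Co2. The whole span in the C series was 2.75-fold. In the horizontal series it was lowest in H2 (3.15) and Ho2 and reached 4.01 in H6 and 3.80 in Ho7, but the uppermost fraction of the Ho series, Ho1, was at 3.91. By the other probe of Rgs2, Ho1 was at -1.74 and Ho6 was the highest of Ho, at -1.49.

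Rgs4, a regulator of Gi and Gq signals in neurons, was low at the rear of the brain and at its front end and high between them. In the C series it was at 1.16, 0.99, 1.13 and 0.89 in C1 to C4, rose to 2.93 in C5, reached 4.23 in C9 and fell to 1.51 in C13. In the Co series it was lowest in Co5 (0.76) and highest in Co11 (3.90), and it fell to 1.75 in Co15. The step between C4 and C5 thus parted the low fractions at the rear from C5 to C11. In the other planes Rgs4 was highest at the left edge and at the top of the brain, with 4.38 in So1, 4.17 in Ho1 and 3.89 in H1. It fell towards the midline, to 2.33 in S6 and 2.43 in So6. At the right edge the 2 mice differed, with 3.44 in S9, the second highest of its series, and 2.63 in So10, below So8 (3.26) and So9 (3.14).

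Rgs8, known from the dendrites and cell bodies of Purkinje cells, was highest in the rear fractions in which Rgs4 was lowest. It was at 5.40, 5.45 and 5.41 in C2 to C4 and at 5.92, 5.86 and 5.97 in Co3 to Co5. Every other C fraction lay between 1.52 and 3.22, and the Co fractions beside the peak were at 4.79 (Co2) and 4.51 (Co6), with 1.82 in Co15 as the lowest. The span was 15.2-fold in C and 17.8-fold in Co. In the horizontal series it was highest in H2 (5.00) and Ho3 (4.95) and lowest in H5 (3.11) and Ho1 (3.22). S1 (3.22), S9 (3.47), So1 (3.16) and So2 (2.78) at the outer edges were below all other sagittal fractions.

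Rgs16, of the same family, had a narrow peak in the middle of the brain. It was at 1.53 in C7 and 1.48 in C8, against 0.63 in C6 and 0.14 in C9 beside them and a lowest value of -1.30 in C12. In the Co series the peak was 2.28 in Co9 and 1.80 in Co8, and the lowest value -1.39 in Co13. In depth the peak was again in the middle, at 1.69 in H3 and 1.54 in H4 and at 1.57 in Ho5, with -1.11 in H6 and -0.61 in Ho7 at the base. In the sagittal series Rgs16 was highest in S6 (0.92) and So6 (1.17), near the midline, and lowest in S1 (-1.29) and So2 (-0.65).

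Rgs7, the R7 member that is spread widely over the forebrain, had a shallow pattern close to that of Rgs4. It was highest in C11 (3.30) and Co13 (3.29) and lowest in C13 (2.25) and Co5 (2.43), a span of 2.07-fold and 1.81-fold. Its highest levels of all were in So1 (3.85), Ho1 (3.61) and So2 (3.60). It fell with depth, with 3.39, 3.08, 2.82, 2.76, 2.68 and 2.67 in H1 to H6.

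Rgs10 had the narrowest range of the 7 genes, 2.68-fold over all fractions, and a peak at the rear end. It was at 3.94 in C1 and at 4.05 in Co1 and 3.56 in Co2, whereas C2 to C13 lay between 2.88 and 3.35. The other Co fractions lay between 2.84 in Co5 and 3.51 in Co16 at the front end, which was close to Co2. In depth it was lowest in H3 (2.63), H2 (2.64) and Ho2 (2.66) and highest at the base in H6 (3.25) and, in Ho, in Ho7 (3.53) and Ho1 (3.64). Ho1 and So1 (3.54), which have no partner in a second mouse, were the highest of their series for Rgs10 as for Rgs2, Rgs4 and Rgs7. By the other probe of Rgs2 this held for So1 (-1.46) but not for Ho1 (-1.74), which was below Ho6 (-1.49). The means of the 4 microglia markers with a probe were also highest in Ho1 (1.48) and So1 (1.23), against medians of 0.27 in Ho and 0.42 in So. In C1 and Co1, where Rgs10 peaked, they were 0.44 and 0.66, near the medians of 0.48 in C and 0.64 in Co. The mean of the oligodendrocyte markers was the highest of its series in C1 (5.40) and Co1 (5.33), and the lowest in Ho1 (2.36) and So1 (2.62). That of the hindbrain markers was highest in C2 (-1.36) and Co1 (-1.30). The mean of the cortex markers was highest in Ho1 too (-0.09), and in So1 (-0.18) it was second to So2 (0.00). The part of these markers in the result was not tested.

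**Figure D2:**
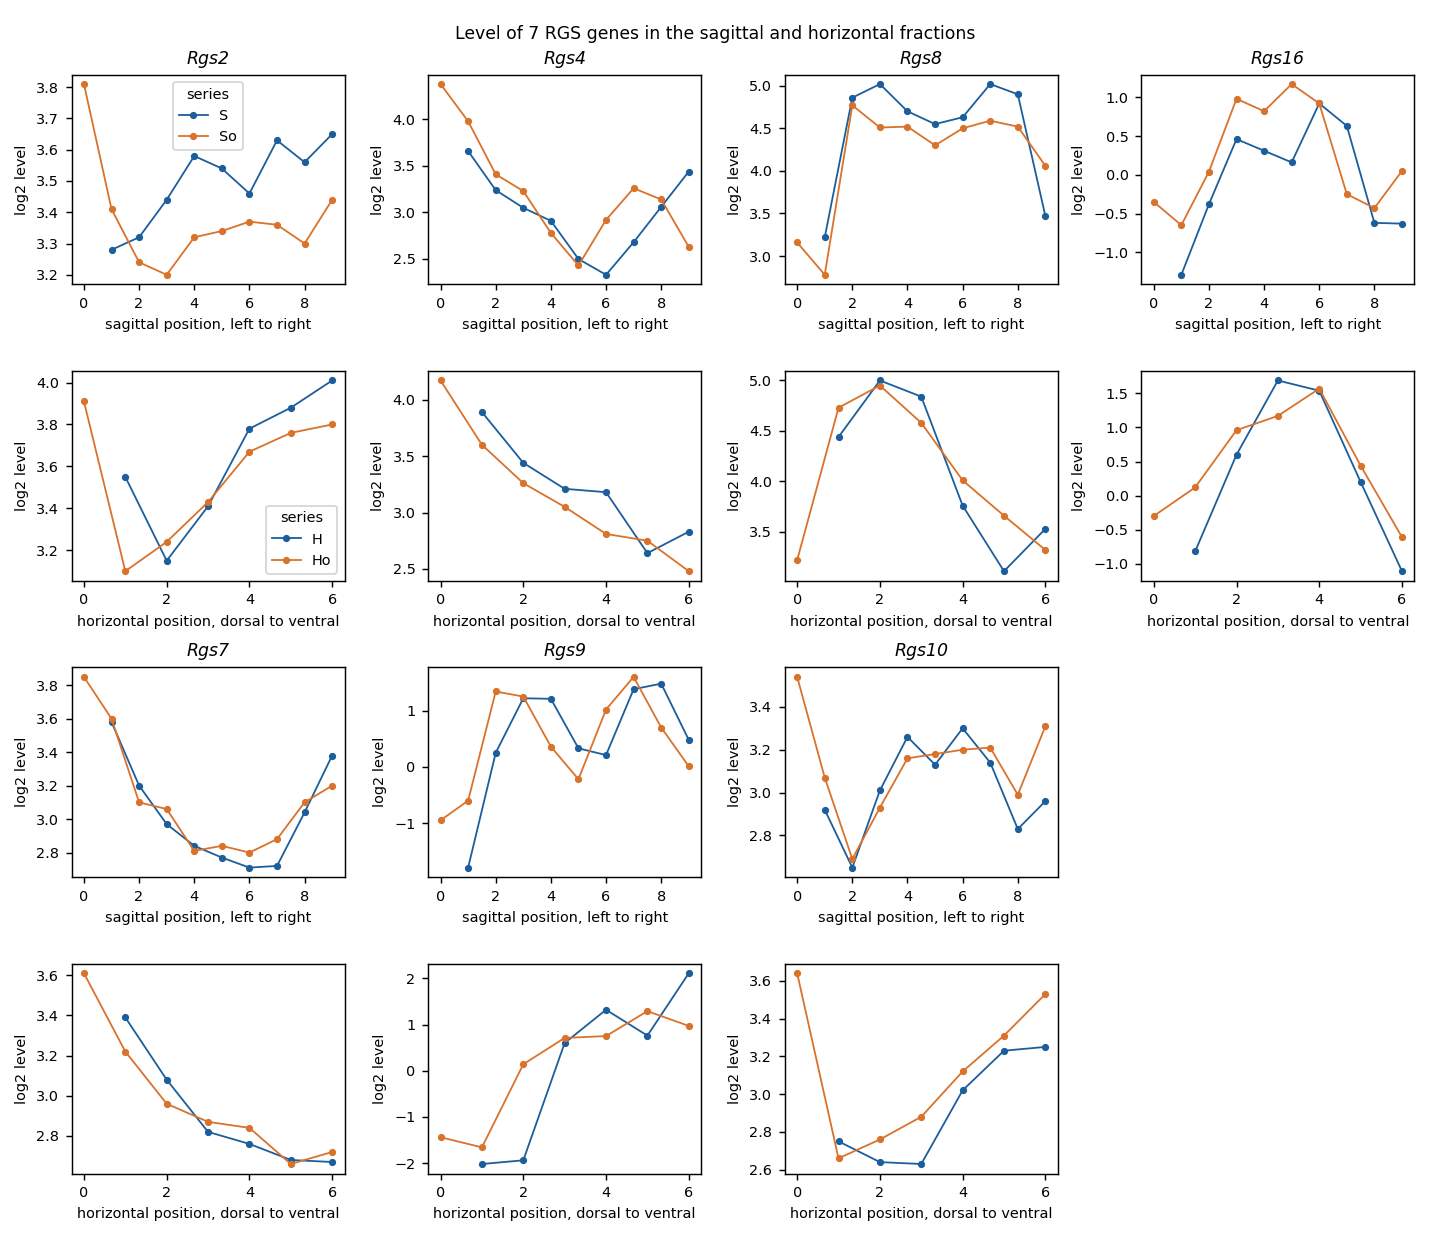
Level (log2, relative to the 75th percentile of each array) of the 7 genes in the sagittal fractions from left to right (S blue, So orange) and in the horizontal fractions from top to bottom (H blue, Ho orange). Unpaired So1 and Ho1 stand to the left of their series. Rgs9 has 2 maxima on either side of a low at the midline, Rgs16 a peak near it, and Rgs4 and Rgs7 are highest at the left edge and lower at the base than at the top.

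The coronal positions were compared as rear (5 pairs, C1 to C5), middle (4 pairs, C6 to C9) and front (4 pairs, C10 to C13). All these fractions came from the C and the Co mouse, and the other planes likewise rest on a single straight-cut and a single oblique mouse. The p-values of the position tests treat the pairs as independent, and they describe these brains and not mice in general. From rear to front, 4 members were higher and 1 was lower (limma, adjusted p under 0.05), where 45% of all probes were called, 19.4% higher and 25.5% lower. Rgs9 rose from a mean of -2.25 in the rear to 0.49 in the front, by 2.75 ± 0.23 (log2 difference ± SE, adjusted p = 1.91e-11), Rgs4 from 1.37 to 3.01 by 1.64 ± 0.11 (adjusted p = 6.98e-14) and Rgs2 from 2.87 to 3.74 by 0.87 ± 0.08 (adjusted p = 4.25e-11). Rgs7 rose by 0.24 ± 0.06 (adjusted p = 0.000815), a difference that was 0.12 (adjusted p = 0.114) without the Co mouse. Rgs8 fell from 4.93 to 2.59, by -2.34 ± 0.20 (adjusted p = 3.39e-11). The differences of Rgs16 (-0.07 ± 0.17) and Rgs10 (-0.02 ± 0.07) did not pass the test.

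From rear to middle, 5 members were higher and 1 was lower, against 42.7% of probes called, 18.2% higher and 24.5% lower. Rgs16, which did not pass between rear and front, had means of -0.51 in the rear, 1.19 in the middle and -0.59 in the front (log2). It rose by 1.70 ± 0.17 (adjusted p = 6.62e-10) from rear to middle and fell by -1.77 ± 0.18 (adjusted p = 4.67e-09) from middle to front. Rgs9 rose by 2.43 ± 0.23, Rgs4 by 2.15 ± 0.11, Rgs2 by 0.74 ± 0.08 and Rgs7 by 0.51 ± 0.06, and Rgs8 fell by -1.64 ± 0.20 (limma, all adjusted p at or below 6.59e-08). Rgs10 differed by -0.14 ± 0.07 (adjusted p = 0.0817), which passed the test with the mouse as a block (adjusted p = 0.0484), with normexp and quantile normalization (-0.21, adjusted p = 0.0103) and without C5, Co2, Co5 or Co8.

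From middle to front no member was higher and 4 were lower, against 23% of probes called, 11% higher and 12% lower. Besides Rgs16 these were Rgs8 (-0.70 ± 0.21, limma, adjusted p = 0.0165), Rgs4 (-0.51 ± 0.11, adjusted p = 0.00111) and Rgs7 (-0.27 ± 0.06, adjusted p = 0.000486). Without the front-most pair, which is C13 and Co15, the values of Rgs8, Rgs4 and Rgs7 were -0.39, -0.05 and -0.14 and did not pass, and Rgs9 passed with 0.95 (adjusted p = 0.0156). By the other probes Rgs8 did not pass (-0.11, adjusted p = 0.578) and Rgs2 was higher in the front (0.22, adjusted p = 0.0122, against 0.13 ± 0.08). Rgs8 also lost its call without C11, C12 or Co9 (-0.61, adjusted p between 0.0514 and 0.0523), and Rgs4 and Rgs7 without the C mouse.

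**Figure D3:**
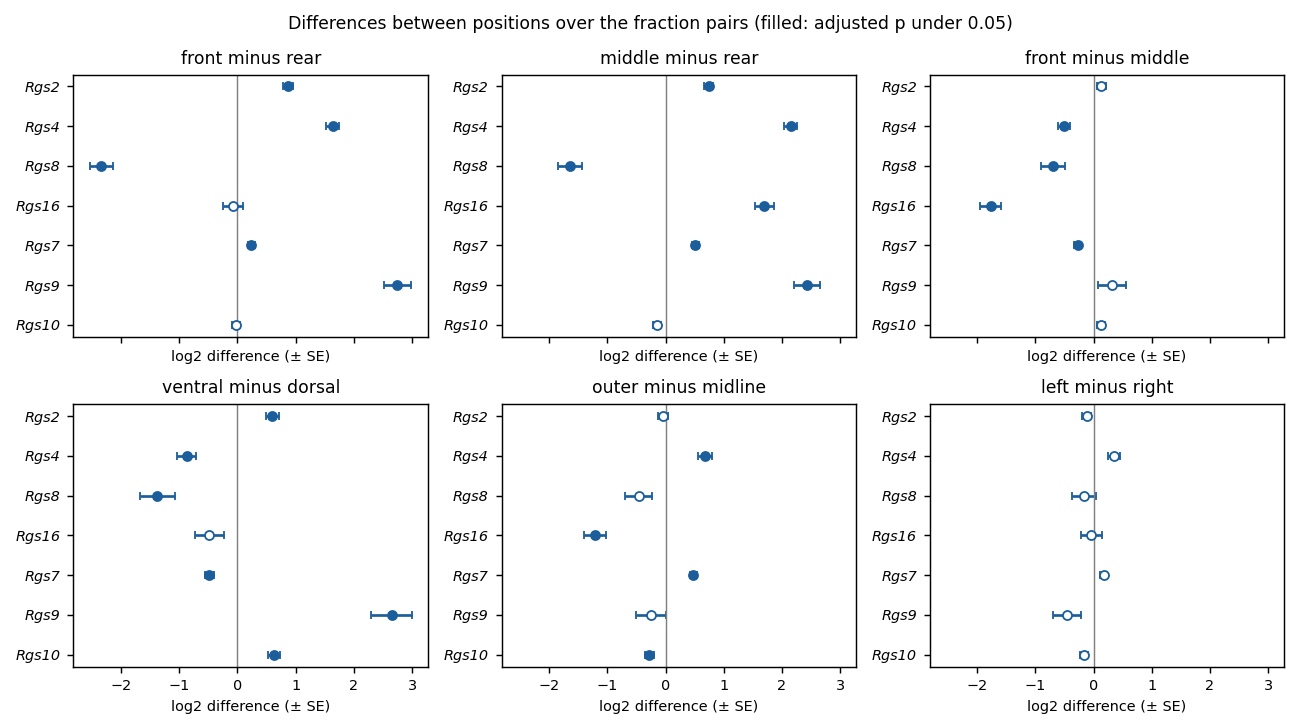
Log2 differences between positions over the fraction pairs for the 7 genes, with bars of ± 1 SE from limma. Filled points have an adjusted p under 0.05. Rgs9 is 2.75 higher in the front than in the rear, Rgs8 is 2.34 lower, Rgs16 stands out in the middle, and no point is filled for left against right.

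With depth (H5 and H6 with their partners against H1 and H2), 3 members were higher at the base and 3 were lower, where 14.2% of all probes were called, 8.45% higher and 5.78% lower. Rgs9 rose from -1.37 at the top to 1.28 at the base, by 2.65 ± 0.35 (limma, adjusted p = 1.65e-06), Rgs10 from 2.70 to 3.33 by 0.63 ± 0.10 (adjusted p = 2.84e-05) and Rgs2 from 3.26 to 3.86 by 0.60 ± 0.11 (adjusted p = 0.000259). Rgs8 fell from 4.78 to 3.40 (-1.38 ± 0.30, adjusted p = 0.00152), Rgs4 from 3.55 to 2.68 (-0.87 ± 0.16, adjusted p = 0.000233) and Rgs7 from 3.16 to 2.68 (-0.48 ± 0.08, adjusted p = 6e-05). Ho1 lies above Ho2 but has no partner and was not in these groups, and its levels of Rgs2 (3.91) and Rgs10 (3.64) were within and above those at the base. Its level of Rgs8 (3.22) was also within those at the base (3.11 to 3.66). For Rgs4 (4.17), Rgs7 (3.61) and Rgs9 (-1.44) Ho1 lay outside the range at the base, on the side of the top. By the other probe of Rgs2, Ho1 was at -1.74, just below the lowest level at the base (-1.73 in Ho7). The difference of Rgs16 was -0.48 ± 0.25 and did not pass (adjusted p = 0.239). By its other probe Rgs4 did not pass either, at -0.78 (adjusted p = 0.0576). Without the H mouse, which leaves each position to the Ho mouse, the calls of Rgs4, Rgs7 and Rgs8 were lost, at -0.81, -0.40 and -1.35, and without the Ho mouse that of Rgs8, at -1.40.

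From the midline (S4 to S6) to the outer fractions (S1, S2, S8 and S9), 2 members were higher and 2 lower, where 19.6% of probes were called, 9.09% higher and 10.5% lower. Rgs4 (2.65 at the midline, 3.32 outside, difference 0.67 ± 0.12, limma, adjusted p = 0.000121) and Rgs7 (2.79 and 3.28, difference 0.48 ± 0.06, adjusted p = 5.8e-07) were higher outside. Rgs16 (0.72 and -0.49, difference -1.21 ± 0.19, adjusted p = 1.52e-05) and Rgs10 (3.21 and 2.93, difference -0.28 ± 0.08, adjusted p = 0.00754) were higher at the midline. The call of Rgs10 was lost with the median of each array as the scale (-0.17, adjusted p = 0.128), in the authors' table and without the S mouse (adjusted p = 0.527). Rgs8 differed by -0.46 ± 0.23 (adjusted p = 0.184) and passed with the mouse as a block (adjusted p = 0.0136).

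Between the left (S1 to S4) and right (S6 to S9) sides, 0 of the 7 members passed the test, where 0.137% of all probes did. At an unadjusted p under 0.05 there were 3 (Rgs4, Rgs7 and Rgs10), where 7.49% of all probes were. The block for scan day gave 1, Rgs7, at 0.16 (limma, adjusted p = 0.0384), and it also called more probes in all, as given below. The differences ranged from -0.46 ± 0.24 for Rgs9 to 0.35 ± 0.11 for Rgs4.

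To place these profiles, the members were compared with lists of genes known to mark parts of the brain. The marker lists led in the fractions that the anatomy gives, with the striatum list highest in C9 and Co11, the thalamus list in C7 and Co9, the cerebellum list in C3 and Co5 and the olfactory bulb list in C13 and Co15. After the mean of each series was taken out, Rgs9 followed the mean of the 5 striatum genes with Pearson's r = 0.97, Rgs4 the cortex list with 0.97, Rgs16 the thalamus list with 0.89, Rgs8 the cerebellum list with 0.85 and Rgs7 the cortex list with 0.82 (60 fractions for Rgs7 and 61 for the others). Rgs2 followed the microglia list with 0.79 and the striatum list with 0.71, and ran against the cerebellum list with -0.86, and Rgs8 against the microglia list with -0.85. Rgs10 had no list above 0.43, which it had with both the hindbrain and the vessel list, and with the microglia list it had 0.34. These coefficients describe the profiles and carry no p, since neighbouring fractions share tissue, slide and scan day.

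**Figure D4:**
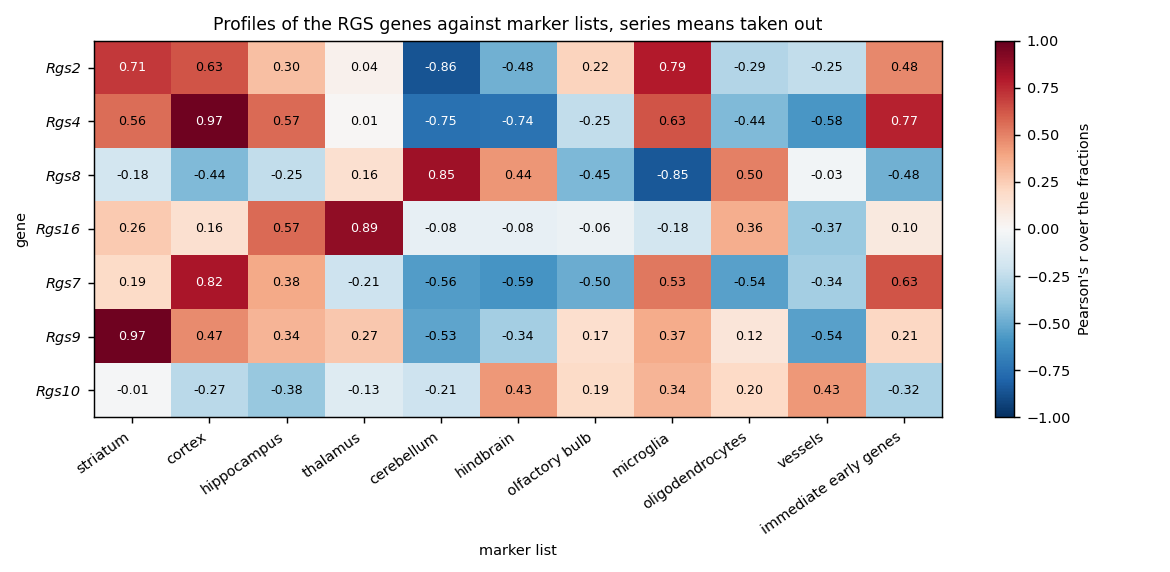
Pearson's r between the level of each gene (rows) and the mean level of each marker list (columns) over the fractions, with the mean of each series taken out. Red is positive and blue negative, and each cell prints its r. Rgs9 goes with the striatum list and Rgs4 with the cortex list (0.97 each), Rgs16 with the thalamus list (0.89) and Rgs8 with the cerebellum list (0.85).

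In each of the 6 mice, the level of a member in the fraction where an area's marker list was highest was set against the mean of the other fractions of that mouse. Rgs9 was higher in the striatum fraction by 2.19 ± 1.13 (log2, mean ± SD, n = 6), in 6 of 6 mice, with differences from 1.07 to 3.58. Rgs16 was higher in the thalamus fraction by 1.52 ± 0.53 in 6 of 6 mice, Rgs8 in the cerebellum fraction by 1.31 ± 0.83 in 6 of 6, and Rgs4 and Rgs7 in the cortex fraction by 1.05 ± 0.27 and 0.55 ± 0.12 in 6 of 6. Rgs2 was higher in the striatum fraction by 0.38 ± 0.36 in 5 of 6 mice and lower in the cerebellum fraction in 6 of 6 (-0.50 ± 0.30). Rgs10 was lower in the cerebellum fraction by -0.38 ± 0.11 and in the hippocampus fraction by -0.33 ± 0.15, in 6 of 6 mice each. The same fraction led both of these lists in 4 mice (S2, So3, H2 and Ho3), so the values are not separate, and likewise S6, So6 and H4 led both the thalamus and the olfactory bulb list. H4 and Ho5 led both the thalamus and the hindbrain list. The striatum list shared So8 with the hindbrain list and Ho6 with the olfactory bulb list. One sign in all mice was also found for Rgs4 in the hippocampus fraction (0.40 ± 0.27), for Rgs16 in the cortex fraction (-0.98 ± 0.39), for Rgs7 in the hindbrain fraction (-0.21 ± 0.04), and in the olfactory bulb fraction for Rgs10 (0.16 ± 0.11), Rgs4 (-0.68 ± 0.39) and Rgs7 (-0.35 ± 0.19). A difference of the same sign in all 6 mice has a p of 0.0312 (exact sign-flip permutation test, two-sided), the smallest that 6 mice allow, and adjusted over the 49 combinations of member and area it is 0.109, so that none passed.

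Genes with the most similar profile over the fractions, among 11127 other genes that were well above background on all arrays, were for Rgs9 Ido1 (r = 0.97), the nuclear receptor Rxrg (0.96) and the phosphodiesterase Pde1b (0.949). Pde1b also led for Rgs2 (0.878), followed by Cpne5 (0.877) and Bhlhb9 (0.862). Rgs4 was most like Chn1 (0.967), Pcsk2 (0.962) and Cd6 (0.961), Rgs7 like Ing2 (0.93), E2f1 (0.93) and Rilpl1 (0.926), and Rgs8 like Bcar1 (0.952), Nek2 (0.946) and Mybpc3 (0.94). For Rgs16 they were Slitrk6 (0.826), Sec14l4 (0.808) and Tcf7l2 (0.807), of which Slitrk6 and Tcf7l2 are in the thalamus list, and for Rgs10 Pold4 (0.882), H2-M3 (0.834) and Pros1 (0.829). Among the members themselves r was highest between Rgs4 and Rgs7 (0.84) and Rgs2 and Rgs9 (0.76) and lowest between Rgs2 and Rgs8 (-0.71). Over the coronal, horizontal and sagittal fractions Rgs4 and Rgs7 had 0.90, 0.96 and 0.88, and Rgs2 and Rgs9 had 0.90, 0.57 and -0.09. The pair of Rgs4 and Rgs9 had r = 0.86 over the coronal fractions and -0.81 over the horizontal ones.

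For 3 members a further probe with the same RefSeq identifier measured the same gene. Over all fractions r was 0.99 between the probes of Rgs4 and 0.96 between those of Rgs2, the latter with 0.63 over the sagittal fractions alone. The probes of Rgs8 had r = 0.83, and 0.44 over the horizontal fractions. The probe used had a mean signal of 25671 units and the other one of 318, and each was well above background in all 61 fractions. On its own scale the other Rgs8 probe had a peak at the rear, with -1.31, -1.16 and -1.07 in C2 to C4 and -1.15, -1.21 and -1.28 in Co3 to Co5, and another of nearly the same height further forward, with -1.47 in C9, -1.39 in C10 and -1.22 in Co11. Between these peaks it was at -2.88 in C7 and -2.73 in Co8. The probe used had only a small rise at the forward position. It was at 3.06 in C7, 3.04 in C9, 3.22 in C10 and 2.88 in C11, and at 3.55 in Co10, 3.79 in Co11 and 3.53 in Co12. From rear to front the other probe fell by -0.81 ± 0.12 (limma, adjusted p = 1.22e-06) against -2.34 ± 0.20, and with depth it differed by 0.04 ± 0.18 (adjusted p = 0.983) against -1.38 ± 0.30. C9 and Co11 are the fractions with the highest mean of the striatum list. Which transcripts of Rgs8 each probe binds is not given in the sources used here.

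**Figure D5:**
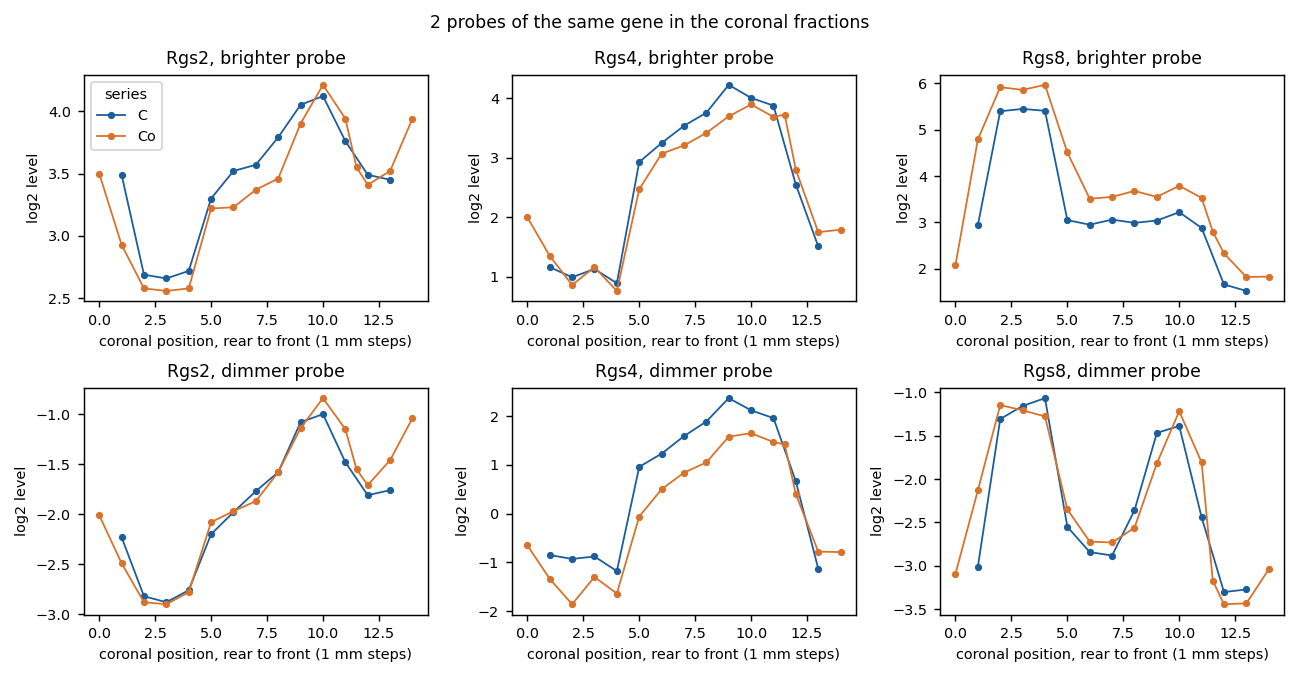
Level (log2, relative to the 75th percentile of each array) given by the brighter (top) and dimmer (bottom) probe of Rgs2, Rgs4 and Rgs8 in the C (blue) and Co (orange) fractions from rear to front. The dimmer Rgs8 probe has a peak at the rear and another in C10 (-1.39) and Co11 (-1.22), where the brighter one has only a small rise, to 3.22 and 3.79.

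Differences between the mice of a plane were taken within the pairs. Rgs8 was higher in Co than in C in 13 of 13 pairs, by 0.71 ± 0.10 (limma, adjusted p = 1.65e-06), where 53.5% of all probes were called. The difference was 1.85 in the pair of C1 and Co2 and 1.46 in that of C5 and Co6, and between 0.30 and 0.68 in the other 11. In those pairs the mean of the cerebellum list was also higher in Co, by 1.36 and 0.93, and its part in the result was not tested. In the pairs of C2, C3 and C4 the list differed by -0.05, -0.16 and 0.07 while Rgs8 was higher by 0.52, 0.41 and 0.56. The other Rgs8 probe differed by 0.09 ± 0.09 (adjusted p = 0.399). Rgs16 was also higher in Co, by 0.33 ± 0.11 (adjusted p = 0.0163) and in 12 of 13 pairs, and Rgs2 was lower by -0.13 ± 0.05 (adjusted p = 0.0281) but not by its other probe, at 0.04, nor with the median as the scale (-0.11), nor without C1, C6 or C8 or their partners (adjusted p up to 0.0864). Rgs4 differed by its other probe alone, by -0.56 (adjusted p = 3.75e-05) against -0.13 ± 0.08. With the slide as a random block, Rgs8 was the 1 member called. Because C and Co were scanned on different days, the mouse, the oblique cut and the scan cannot be told apart.

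Between So and S, only Rgs2 passed, at -0.16 ± 0.06 (limma, adjusted p = 0.0361), where 30.2% of probes were called. It lost its call with the median of each array as the scale (-0.10), with normexp and quantile normalization (-0.13), in the authors' table (-0.09), with the slide as a block (-0.12), by its other probe (-0.05, adjusted p = 0.55), and without S3, S4, S5, S7, S8 or S9 or the partner of any of them (adjusted p up to 0.0796). The other probes of Rgs4 (0.35, adjusted p = 0.0315) and Rgs8 (0.31, adjusted p = 0.0253) passed here, where those used had 0.10 and -0.20. Rgs16 was higher by 0.34 ± 0.14 in 8 of 9 pairs and did not pass (adjusted p = 0.0565), but it passed with the median as the scale (0.41, adjusted p = 0.0203). Between Ho and H, which were scanned together, 0 of the 7 members passed in limma, where 5.36% of probes were called. At an unadjusted p under 0.05 there were 0 members as well, where 18.5% of all probes were. Of the immediate early genes, which respond to neuronal activity as Rgs2 does, 5 of 6 were lower in So than in S (median -0.81), 3 of 6 were higher in Co than in C (median 0.30) and 0 of 6 passed between Ho and H, and their part in the differences of Rgs2 was not tested.

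The other genes of the pathway were counted by lists. Of the 11 other RGS genes with a probe, 8 varied over the pairs, with a median F of 13.2, against 61.2% of all probes. Rgs14, known from hippocampal neurons, had F = 275 (limma, adjusted p = 1.33e-24) and spanned 7.56 (log2) with its highest level in Co13, Rgs12 had F = 30.1 (highest in Co14) and Rgs20 F = 23.4 (highest in C10). From rear to front 8 of the 11 were higher and 1 was lower, Rgs3 (-0.74, adjusted p = 2.32e-09), against 19.4% and 25.5% of all probes. Of the 8, Rgs13, Rgs18 and Rgs1 were well above background in only 41, 18 and 10 of the 61 fractions, and Rgs1 did not vary over the pairs (adjusted p = 0.142). Rgs6, of the R7 family, rose by 0.67 from rear to front (adjusted p = 3.33e-08). Its profile with depth, a fall by -0.67 (adjusted p = 0.000177), had the sign of that of Rgs7 and not of Rgs9.

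All 4 partners of the R7 proteins that had a probe varied over the pairs, as 61.2% of all probes did, with low F values (median 2.44, near the 2.58 of all probes). Between Co and C, Rgs7bp differed by 0.56 ± 0.07, Gpr158 by 0.40 ± 0.05, Gnb5 by -0.39 ± 0.05 and Rgs9bp by 0.25 ± 0.20 (log2 ± SE). Such mouse differences are part of the spread within pairs against which F was taken. The beta subunit Gnb5 (F = 2.12, limma, adjusted p = 0.0403) was higher in the front by 0.55 (adjusted p = 0.000138), and the membrane anchor Rgs7bp (F = 2.38, adjusted p = 0.021) fell with depth by -0.66 (adjusted p = 0.0461). The receptor Gpr158, which binds Rgs7 (F = 3.2, adjusted p = 0.00312), was higher in the middle than in the rear by 0.33 (adjusted p = 0.0175). Rgs9bp, the anchor of Rgs9 in the retina, was well above background in 17 of 61 fractions (F = 2.5, adjusted p = 0.0158). Over the fractions Rgs9 spanned 5.93 (log2), and Rgs7bp 1.92.

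Of the 13 G alpha subunits, on which RGS proteins act, 7 varied over the pairs (median F 2.94, against 2.58 over all probes, of which 61.2% varied), led by Gnaz (F = 13.1, limma, adjusted p = 4.31e-09), Gna14 (F = 7.16, adjusted p = 2.74e-06) and Gnal (F = 6.47, adjusted p = 7.43e-06). Gnal, the olfactory type that couples dopamine receptors in the striatum, was highest in C10 and rose with depth by 0.93 (adjusted p = 0.00152), and its difference between front and rear was 0.02 (adjusted p = 0.942). Of the 14 beta and gamma subunits 10 varied, beside the same 61.2%, led by Gng7 (F = 33.6, adjusted p = 8.87e-14), Gng4 (F = 16.1) and Gng11 (F = 13). Gng7, the gamma subunit that joins Gnal in striatal neurons, was highest in C10, rose by 2.07 from rear to front (adjusted p = 6.38e-15) and by 1.62 with depth (adjusted p = 1.83e-07). Of 16 effectors 14 varied, again beside 61.2% of all probes, led by the adenylyl cyclases Adcy1 (F = 26.2), Adcy7 (F = 18.8) and Adcy5 (F = 18.4). Adcy5, the main cyclase of the striatum, was highest in C10 too and rose by 1.13 from rear to front (adjusted p = 3.52e-10) and by 1.22 with depth (adjusted p = 2.39e-06). Adcy1 was highest in Co5, where Rgs8 was also highest, and fell by -1.20 from rear to front (adjusted p = 4.57e-12) and by -1.67 with depth (adjusted p = 6.58e-10).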

How the data were processed

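The authors deposited the background-subtracted spot intensity of each 1-colour Agilent array (Agilent Feature Extraction 9.1, per the labels), not normalized between arrays, together with their own GeneSpring GX table, in which each array is normalized on a linear scale. Array annotation was old, so symbols were taken through RefSeq identifiers. From the deposited intensity, log2 values were computed here for 43379 non-control spots, spots flagged as outliers (1 to 173 per array) were dropped, spots of a probe were averaged and the 75th percentile of each array was subtracted. The S fractions, numbered from 2 in the labels, were renumbered from 1. The number of arrays and mice limits the precision, and with 1 mouse per series p-values measure the spread between paired fractions of different mice.

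Pairs of fractions were fitted with limma 3.58.1 in R 4.3.3 (lmFit, eBayes, 1.88 prior degrees of freedom), over 36558 probes well above background on at least 1 array, and the mouse differences with the pairs and 3 mouse terms. The study's methods name a one-way ANOVA over the pairs, which was an alternative. Benjamini-Hochberg adjustment was used throughout with a threshold of 0.05. The fits were tested on simulated data. Python 3.11.15, numpy 2.4.6, pandas 2.3.3, scipy 1.17.1 and matplotlib 3.10.9 were used for the rest. Deviations of fractions from their pair mean had a median correlation of 0.682 between fractions from 1 mouse (129 combinations) and of -0.0615 between mice (249 combinations), so the mouse was tried as a block.

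The members and gene lists were chosen with earlier results of these data known. The genes named are the 7 members, the R7 partners, the 3 genes of each pathway list with the largest F, the 3 genes most like each member and the marker genes. Rgs3, Rgs6, Rgs7bp and others beyond this rule were named after their values were seen. The alternatives were the median as scale, normexp (offset 50, on median spot signals) with quantile normalization, the authors' table, other probe filters, blocks for slide (correlation 0.541, estimated on every 10th probe), scan day or mouse, single planes, other probes, and leaving out each array or mouse. No value column was left unused.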

Additional observations from a re-analysis of the deposited data

Results flagged for a closer look

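In the S series, the level of Rgs9 in S1, the outermost fraction on the left, was -1.79, which is 2.00 below the next lowest fraction, and this gap was large for 9 values. S1 was scanned with the So series and apart from S2 to S9, and its striatum markers were also the lowest of the series (mean -0.69). In the So series, Rgs2 in So1 was at 3.81, which is 0.37 above the next highest of 10 fractions, and its other probe was also highest there, at -1.46. For independent values, chance alone would give such gaps in about 1 of 20 of the 28 combinations of series and member examined. Fractions along an axis are not independent, and S1 and So1 lie at the edge of their series, so this rate need not hold here.

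The mouse difference of Rgs8 was not the same in the 3 planes. The difference of So and S minus that of Co and C was -0.91 ± 0.16 (limma, adjusted p = 3.68e-05), and the difference of Co and C minus that of Ho and H was 0.62 ± 0.19 (adjusted p = 0.0107). The other Rgs8 probe gave 0.22 (adjusted p = 0.187) and -0.02 (adjusted p = 0.932).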

How the results depend on the processing

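The count of members that varied over the pairs stayed at 7 under each scaling, background correction and block, was 6 with the strictest filter (well above background in every fraction), under which Rgs7 was not tested, 6 with the horizontal pairs alone (Rgs2 lost, adjusted p = 0.0575), and was 2 with the sagittal pairs alone. With the mouse as a replicate block, all 7 members varied over the pairs (31354 probes in all), and besides the gains given above for Rgs10 and Rgs8 no call of a member changed. The counts over all probes moved with the block: from middle to front 13823 with the mouse and 13738 with the scan day instead of 8399, with depth 9932 and 10600 instead of 5199, from midline to outside 12151 and 12356 instead of 7163, and between left and right 568 and 845 instead of 50, where 1 member passed with the scan day and the slide as a block gave 0. Over the pairs, 14368 probes passed with that filter, and 13765, 4611 and 2392 in the coronal, horizontal and sagittal pairs, instead of 22341. Between left and right that filter gave 22. Without the front-most pair, 2 members and 4249 probes passed from middle to front, and without the C mouse 2 and 5380. With depth, 3 members and 1516 probes passed without the H mouse and 2674 probes without the Ho mouse. Without the S mouse 3568 probes passed from midline to outside and 535 between left and right, and without the So mouse 318 of the latter. For So against S, 2 members passed with that filter and 0 members and 5316 probes with the slide as a block. For Co against C that block left 1 member, and for Ho against H it left 407 probes of 1959, and normexp with quantile normalization 1222.

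When 1 array was left out, the probes called with depth ranged from 3185 to 5363, between left and right from 46 to 280 and between Ho and H from 1083 to 2978, and the members called between So and S from 0 to 2. The other probe reversed the sign for Rgs8 with depth (0.04), for Rgs8 between So and S (0.31) and for Rgs2 between Co and C (0.04). No combination of member and area passed under any alternative run. The sign-flip test over 6 or fewer mice could hardly give another outcome, since its smallest p is too large for the adjustment over 49 combinations. These runs therefore do not show whether the area differences are stable. Fractions from 1 mouse per series, and dim probes such as those of Rgs9bp, limit what could be seen.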
